A study of Mus musculus with 8 samples.

Results

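The 40 genes described here encode proteins that the liver secretes into blood plasma. They were measured in platelet RNA and are 40 of the 55487 genes of the tables. All 40 symbols were found once in both deposited tables. The members were chosen on their counts in these same libraries, and the ratio of each gene to albumin (Alb) was part of the choice. Their levels, their ratios to Alb and their differences between genotypes are therefore given as a description, without a test that would support the choice.

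Platelets came from 8 male mice aged 13 weeks. By the labels, 4 were Dnmt3a+/-, heterozygous for the gene of a DNA methyltransferase that sets new methyl marks, and 4 were wild-type (WT) littermates. No source used here names the kind of mutant allele, the strain or the tissues that carry the mutation. All 8 samples shared the same collection: blood from the heart, platelets spun out of platelet-rich plasma, and depletion with Ter119 and CD45 beads against red cells and leukocytes, followed by stranded libraries of polyadenylated RNA. Dnmt3a itself had, in order of replicate, 332, 408, 315 and 279 counts in WT and 151, 186, 399 and 450 in the libraries labelled Dnmt3a+/-. Its level was low in the libraries labelled Dnmt3a+/- replicates 1 and 2 and within the WT range or above it in replicates 3 and 4. Genotypes are therefore given as labels, and counts below are listed in the same order of replicates. Each library comes from 1 mouse, and replicates are called biological in the labels.

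Plasma proteins are made mainly by hepatocytes, which secrete albumin, lipid carriers, clotting factors, protease inhibitors and, in mice, the major urinary proteins. Their transcription in hepatocytes depends on factors that include HNF1, HNF4 and C/EBP proteins. Some of these genes have other sources as well: C3 and Apoe are made by macrophages, C3 also by adipocytes and fibroblasts, and Trf is expressed by several cell types. Platelets lack a nucleus and carry RNA left by megakaryocytes, and some plasma proteins enter platelet granules as protein.

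Promoter sequences are shown for Alb and for Apoh and C3, the 2 genes whose ratio to Alb varied most. RefSeq (GRCm38.p6) gave 35 promoter windows for 30 of the 40 members. In the 250 bases before the start, the word GTTAAT, the core of HNF1 sites, was searched on both strands. It occurred in 11 of the 35 windows (31.4%), each of another gene, and in 6.43% of 32851 windows of the same length over all genes. TTGCNNAA, a C/EBP-type word, occurred in 12 of the 35 (34.3%) against 9.56% of all windows. TATAAA occurred in 7 of the 35 (20%) against 12.4%, with overlapping matches on the 2 strands in some windows. CAAAGTCCA, an HNF4-type word, was found in 0 of the 35 and in 0.384% of all windows, and the full palindromic HNF1 site in 0 and in 0.00913%. A match describes letters in the window and not binding. In the windows below, capitals mark these words. The Alb window (chr5:90460620-90460869, plus strand) holds both the HNF1 and the C/EBP word, the latter read on the other strand. The Apoh window (chr11:108395047-108395296, plus strand) holds none of them, and the C3 window (chr17:57228137-57228386, minus strand) holds the C/EBP word.
Alb: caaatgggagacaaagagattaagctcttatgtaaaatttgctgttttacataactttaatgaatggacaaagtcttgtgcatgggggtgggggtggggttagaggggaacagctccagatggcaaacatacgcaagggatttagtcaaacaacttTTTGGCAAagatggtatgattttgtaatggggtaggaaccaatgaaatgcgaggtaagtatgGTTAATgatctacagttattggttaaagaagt
Apoh: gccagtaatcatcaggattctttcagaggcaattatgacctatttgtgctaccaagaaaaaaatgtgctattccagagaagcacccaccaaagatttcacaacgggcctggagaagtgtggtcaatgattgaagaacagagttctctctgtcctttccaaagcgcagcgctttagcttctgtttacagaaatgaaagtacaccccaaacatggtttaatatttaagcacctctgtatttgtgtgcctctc
C3: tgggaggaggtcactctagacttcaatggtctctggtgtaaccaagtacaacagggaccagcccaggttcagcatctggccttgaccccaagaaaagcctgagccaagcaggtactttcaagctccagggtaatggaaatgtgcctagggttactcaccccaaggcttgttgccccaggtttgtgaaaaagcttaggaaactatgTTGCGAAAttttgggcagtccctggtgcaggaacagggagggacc
Around GTTAAT the 5 Serpina1 genes have an identical run of 50 bases, so 5 of the 11 matches are copies of each other. Outside the word itself, the Serpina1 window matches the Alb window in 18 of 44 bases (40.9%). The lines below show 50 bases with GTTAAT at the same place, at chr5:90460804-90460853 (plus strand) for Alb, chr6:128526784-128526833 (minus strand) for Pzp, chr5:89457935-89457984 (minus strand) for Gc, and chr12:103863625-103863674 (minus strand) for Serpina1a.
Alb: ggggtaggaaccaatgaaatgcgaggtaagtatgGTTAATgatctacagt
Pzp: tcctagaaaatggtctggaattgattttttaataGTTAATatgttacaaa
Gc: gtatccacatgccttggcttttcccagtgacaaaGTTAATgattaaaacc
Serpina1a: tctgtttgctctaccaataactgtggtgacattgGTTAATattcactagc
Genes with the word lay on both sides of the threshold for departing from Alb that is used below. Pzp, Serpina1c and Serpina1e, which carry it, were among the members closest to Alb. Apoe, Cp, Gc, Serpina1a, Serpina1b, Serpina1d and Vtn, which carry it too, departed from Alb. Cp, Gc, Serpina1a, Serpina1b and Serpina1d did so only with Dnmt3a+/- replicates 2 and 4 included, where Alb had 4 and 6 counts. Any link between the word and the ratio to Alb was not tested. Mup3 and Mup7, also among the closest, hold none of the words in their windows.

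Libraries held 15185218 to 22160394 counts. The platelet genes Ppbp and Itga2b were among 8 platelet markers that made up 3.44% to 4.02% of counts in WT and 3.65% to 4.21% in the libraries labelled Dnmt3a+/-. WT replicate 1 stood apart: erythroid genes were 2.04% of its counts, against a range of 0.203% to 0.487% elsewhere. Values without it are given where a count of calls rests on it.

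The highest summed share of the 40 genes was 215 times the lowest. They made up 0.00515% of counts in WT replicate 1, 0.0725% in replicate 2, 0.300% in replicate 3 and 0.230% in replicate 4. In the libraries labelled Dnmt3a+/- replicates 1 to 4 the shares were 0.0211%, 0.00140%, 0.0237% and 0.00332%. WT replicates 2, 3 and 4 lay above every library labelled Dnmt3a+/-, whereas WT replicate 1 lay below replicates 1 and 3 of that group, so the groups overlapped. The exact (Clopper-Pearson) 95% interval of the lowest share was 0.00122% to 0.00159%, and that of the highest was 0.298% to 0.303%, so counting error is small beside the range. Such intervals cover counting error only. Group means were 0.152% ± 0.137 (SD, n = 4) in WT and 0.0124% ± 0.0116 (SD, n = 4) in Dnmt3a+/-. In a bulk sample, fewer cells of a type and less RNA per cell cannot be told apart.

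**Figure D1:**
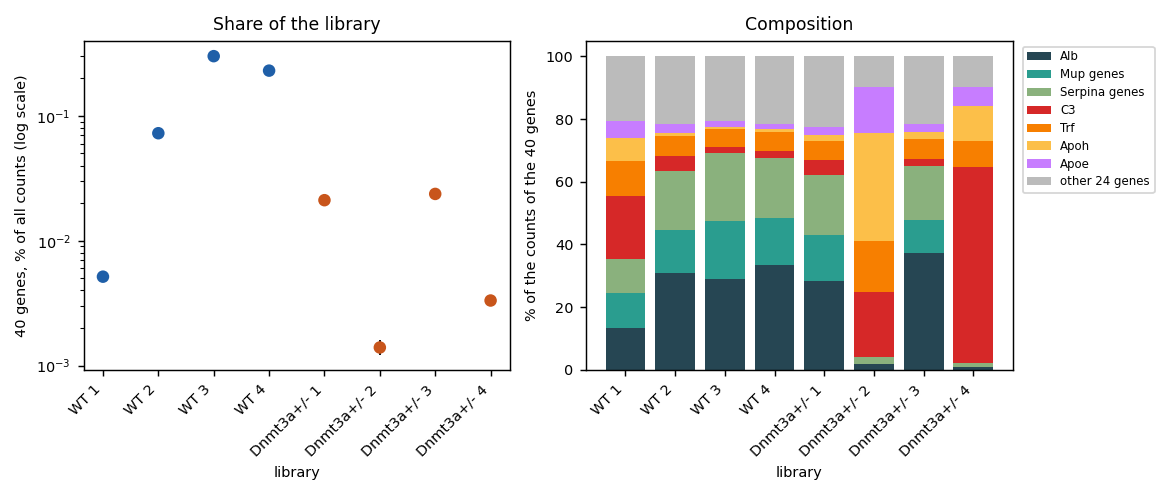
Share of the 40 liver plasma protein genes in each library's counts (left, log scale, points with exact 95% binomial intervals, WT blue and Dnmt3a+/- orange) and the makeup of those counts by gene (right, stacked bars, % of the 40 genes' counts). WT replicate 3 is highest at 0.300% and the library labelled Dnmt3a+/- replicate 2 lowest at 0.00140%, and C3, Trf, Apoh and Apoe fill 86.0% and 87.8% of the bars of Dnmt3a+/- replicates 2 and 4.

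The same order of libraries ran through the list. All 40 genes were highest in WT replicate 3, then in WT replicate 4, then in WT replicate 2 among the WT libraries, by counts per 1000000 after TMM scaling (CPM). In WT replicate 1, 36 of the 40 were lower than in both Dnmt3a+/- replicate 1 and Dnmt3a+/- replicate 3. The 4 exceptions were C3, Hp, Serpinf1 and Agt. In the library labelled Dnmt3a+/- replicate 2, 24 genes had no count, and in replicate 4 of that label 20 had none, with 16 at 0 in both. A count of 0 there allows up to 3 counts, or 0.189 and 0.135 counts per 1000000. The libraries lowest in these genes, Dnmt3a+/- replicates 2 and 4, were not the pair lowest in Dnmt3a.

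**Figure D2:**
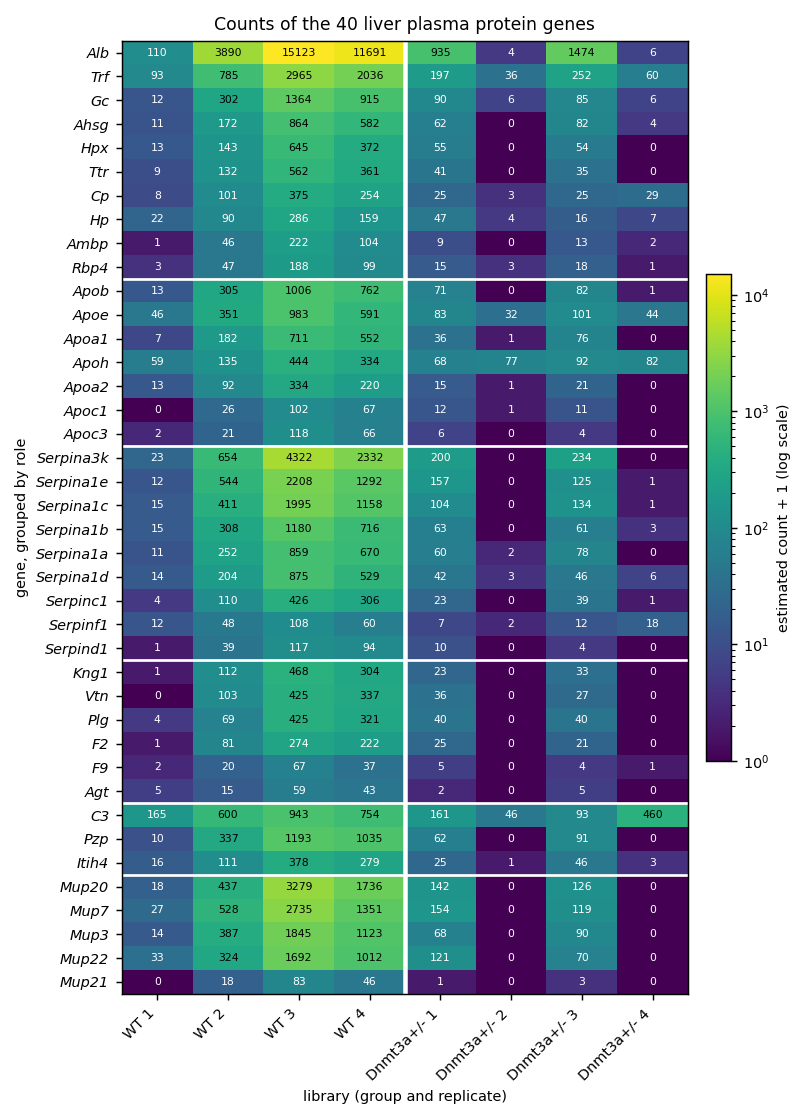
Estimated counts of the 40 genes (rows, grouped by role) in the 8 libraries (columns), printed in each cell and coloured on a log scale of count + 1. The columns of WT replicates 2, 3 and 4 are high throughout, and those of Dnmt3a+/- replicates 2 and 4 are near 0 except for C3, Trf, Apoh, Apoe, Cp and Serpinf1.

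The genotype comparison was fitted over all genes with edgeR's quasi-likelihood test. Of the 40 members, 36 passed the filter on low counts, and Apoc3, F9, Agt and Mup21 did not. All 40 had a lower mean in the libraries labelled Dnmt3a+/-, as in the values on which the members were chosen. Fitted log2 fold changes (Dnmt3a+/- minus WT) of the 36 ran from -4.44 for Mup3 to -1.72 for Apoh. The median over all genes was -0.01. No member was called at an adjusted p under 0.05 (Benjamini-Hochberg adjusted p from 0.647 to 0.981), and 0% of the 7362 genes were called lower. The number at an unadjusted p under 0.05 was 362 of 7362. Alb had a log2 fold change of -3.67 (SE 1.55, edgeR adjusted p = 0.981). Its spread within WT, 482 ± 446 CPM (SD, n = 4) against 37.9 ± 44.9 in Dnmt3a+/-, was about as large as the mean.

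The count of calls rests on WT replicate 1 and on the filter. Without WT replicate 1, edgeR called 29 of the 40 members lower, where 1.74% of 7718 genes were called lower and 0.013% higher. With no filter on low counts it called all 40, where 1.33% of 18462 genes were called lower and 0.0217% higher. DESeq2 called Serpinf1 (log2 fold change -2.73), F9 (-3.70) and Agt (-4.19), where 0.138% of 10114 genes were called lower. Groups overlapped for 39 of the 40 genes. Agt, whose product is the precursor of angiotensin, was the exception, with 5, 15, 59 and 43 counts in WT and 2, 0, 5 and 0 in the libraries labelled Dnmt3a+/-. Groups did not overlap, with Dnmt3a+/- lower, for 1.17% of the 7362 fitted genes, and in either direction for 2.54%. Agt, which did not pass the filter, is not among these fitted genes, so the shares cover a set without it. Nothing is read from these shares, since the members were chosen on the same values.

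**Figure D3:**
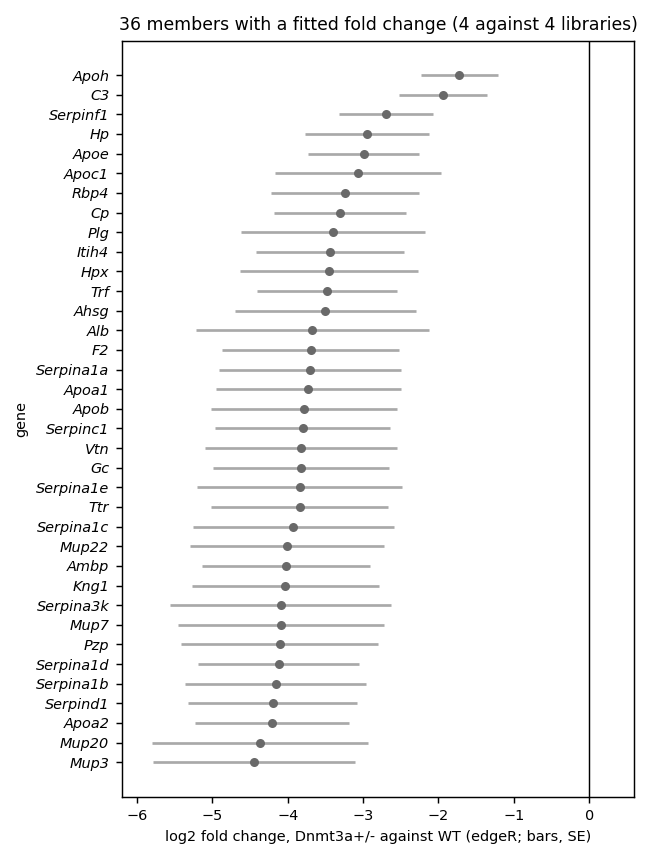
Log2 fold changes of the 36 fitted members, libraries labelled Dnmt3a+/- against WT (points, edgeR estimate from 4 against 4 libraries; bars, SE). Values run from -4.44 for Mup3 to -1.72 for Apoh, and the shortest bars belong to Apoh and C3.

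Carrier and transport proteins held the most counts in 6 of the 8 libraries, at 34.2% to 52.1% of the 40 genes' counts. In Dnmt3a+/- replicate 2 apolipoproteins held more (50.5% against 25.2%), and in replicate 4 the group of C3, Pzp and Itih4 did (62.9% against 15.6%). Alb, the main protein of plasma and carrier of fatty acids and hormones, had 110, 3890, 15123 and 11691 counts in WT and 935, 4, 1474 and 6 in the libraries labelled Dnmt3a+/-. Alb was thus barely detected in Dnmt3a+/- replicates 2 and 4 and well above WT replicate 1 in replicates 1 and 3. Per transcript length, it was the highest member in WT replicate 3 at 481 TPM (transcripts per 1000000), followed by Mup20, Mup7 at 215 TPM and Mup3 at 141 TPM. In the library labelled Dnmt3a+/- replicate 4 it ranked 12 of 40, at 0.16 TPM, behind C3 at 6.14 TPM and Apoh at 3.97 TPM.

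Trf encodes transferrin, the iron carrier. Its counts were 93, 785, 2965 and 2036 in WT and 197, 36, 252 and 60 in the libraries labelled Dnmt3a+/-. Trf did not approach 0 in any library, unlike Alb. Gc, the vitamin D binding protein, had 12, 302, 1364 and 915 counts in WT and 90, 6, 85 and 6 in Dnmt3a+/-. Ahsg, fetuin-A, had 11, 172, 864 and 582 in WT and 62, 0, 82 and 4 in Dnmt3a+/-. Both followed Alb in the libraries with many counts, and rest on 6 counts or fewer in Dnmt3a+/- replicates 2 and 4.

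Hp, haptoglobin, binds free haemoglobin and is also made by developing neutrophils. It had 22, 90, 286 and 159 counts in WT and 47, 4, 16 and 7 in the libraries labelled Dnmt3a+/-. Cp, ceruloplasmin, the copper-carrying ferroxidase, had 8, 101, 375 and 254 in WT and 25, 3, 25 and 29 in Dnmt3a+/-. After scaling, Cp was at 1.26 CPM in replicate 4 of that label, somewhat below 1.65 and 1.52 CPM in replicates 1 and 3. Alb was at 0.26 CPM there against 61.7 and 89.4 CPM. The other carriers were Ttr and Rbp4, which carry thyroxine and retinol, Hpx, which binds haem, and Ambp, the precursor of a small lipocalin and of bikunin. Their counts reached 562, 188, 645 and 222 in WT replicate 3 and were 3 or fewer in Dnmt3a+/- replicates 2 and 4.

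Among apolipoproteins, Apob went with Alb, whereas Apoe and Apoh did not. Apob, the structural protein of very low density lipoprotein, and Apoe had nearly equal totals over the 8 libraries. Apob was the higher in WT replicates 3 and 4 and Apoe in the other 6. Apob had 13, 305, 1006 and 762 counts in WT and 71, 0, 82 and 1 in the libraries labelled Dnmt3a+/-. Apoe, whose product is a ligand of lipoprotein receptors, had 46, 351, 983 and 591 in WT and 83, 32, 101 and 44 in Dnmt3a+/-. Apoh, beta-2-glycoprotein I, which binds anionic phospholipid, had 59, 135, 444 and 334 in WT and 68, 77, 92 and 82 in Dnmt3a+/-. Apoh was nearly level over the 4 libraries labelled Dnmt3a+/-, at 4.60 ± 0.834 CPM (SD, n = 4), while Alb ran from 0.248 to 89.4 CPM in them. WT replicate 1, at 3.76 CPM, lay within that range for Apoh, and only WT replicates 2, 3 and 4 lay above it. Apoa1, the main protein of high density lipoprotein, Apoa2, Apoc1 and Apoc3 reached 711, 334, 102 and 118 counts in WT replicate 3 and had 0 or 1 in Dnmt3a+/- replicates 2 and 4.

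Serpins are inhibitors of serine proteases. Serpina3k led them with 23, 654, 4322 and 2332 counts in WT and 200, 0, 234 and 0 in the libraries labelled Dnmt3a+/-. Serpina1a to Serpina1e are mouse copies of the alpha-1-antitrypsin gene. Serpina1a had 11, 252, 859 and 670 counts in WT and 60, 2, 78 and 0 in Dnmt3a+/-. These genes were near 0 in Dnmt3a+/- replicates 2 and 4, like Alb. Serpina1b had 15, 308, 1180 and 716 in WT and 63, 0, 61 and 3 in Dnmt3a+/-. Serpina1d had 14, 204, 875 and 529 in WT and 42, 3, 46 and 6 in Dnmt3a+/-. Serpina1c and Serpina1e reached 1995 and 2208 counts in WT replicate 3.

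Serpinc1, antithrombin, had 4, 110, 426 and 306 counts in WT and 23, 0, 39 and 1 in the libraries labelled Dnmt3a+/-. Serpind1, heparin cofactor II, reached 117. Serpinf1, a serpin without inhibitory activity that is also made by fibroblasts and adipocytes, had 12, 48, 108 and 60 in WT and 7, 2, 12 and 18 in Dnmt3a+/-. Unlike the other serpins, Serpinf1 had its highest count of that label in replicate 4.

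Clotting and kinin genes were at or near 0 where Alb was. Kng1, kininogen, had 1, 112, 468 and 304 counts in WT and 23, 0, 33 and 0 in the libraries labelled Dnmt3a+/-. Vtn, vitronectin, which binds integrins, had 0, 103, 425 and 337 in WT and 36, 0, 27 and 0 in Dnmt3a+/-. F2, prothrombin, had 1, 81, 274 and 222 in WT and 25, 0, 21 and 0 in Dnmt3a+/-. Plg, plasminogen, and F9, factor IX, reached 425 and 67 in WT replicate 3. The 6 genes of this group, Agt included, summed to 13 counts in WT replicate 1 and to 0 and 1 in Dnmt3a+/- replicates 2 and 4.

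C3, the central complement component, was the member with the most counts in WT replicate 1 and in Dnmt3a+/- replicate 4. It had 165, 600, 943 and 754 counts in WT and 161, 46, 93 and 460 in the libraries labelled Dnmt3a+/-. At 19.96 CPM, Dnmt3a+/- replicate 4 was the highest of its label and above WT replicate 1, at 10.5 CPM. Pzp, an alpha-2-macroglobulin-type protease trap, had 10, 337, 1193 and 1035 in WT and 62, 0, 91 and 0 in Dnmt3a+/-. Itih4, an inter-alpha-trypsin inhibitor heavy chain, had 16, 111, 378 and 279 in WT and 25, 1, 46 and 3 in Dnmt3a+/-. Pzp thus shared its pattern with Alb and C3 did not.

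Major urinary proteins (Mup) are lipocalins that bind pheromones and are made in the liver of males in large amounts. Mup20, also known as darcin, led them with 18, 437, 3279 and 1736 counts in WT and 142, 0, 126 and 0 in the libraries labelled Dnmt3a+/-. Mup7, Mup3 and Mup22 reached 2735, 1845 and 1692 counts, and Mup21 83. All 5 were at 0 in Dnmt3a+/- replicates 2 and 4, so the summed Mup share of the 40 genes was 0 there. It was 14.7% and 10.4% in Dnmt3a+/- replicates 1 and 3, and 11.2% to 18.4% in the 4 WT libraries.

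The ratio to Alb shows which genes followed Alb from library to library. For each gene the SD of log2((count + 0.5)/(Alb count + 0.5)) was taken over the 8 libraries, and a gene was said to depart where it passed 1. This SD was 0.27 for Pzp, 0.38 for Mup3, 0.42 for Serpina1c, 0.44 for Serpina1e, 0.51 for Mup20, 0.58 for Mup7 and 0.60 for Serpina3k. Log2 Alb itself had an SD of 4.58, so these genes moved almost in step with it. In Dnmt3a+/- replicates 2 and 4 they had 0 or 1 counts, so the added 0.5 largely sets their ratios there. In the 6 libraries with 100 or more Alb counts, their SDs ran from 0.24 for Serpina1c to 0.56 for Mup7. Measured against the summed members in place of Alb, each of these genes passed the threshold over the 8 libraries. Of the 39 genes other than Alb, 29 had a median count of at least 20 and were judged, and 15 departed. They were Ahsg, Apoe, Apoh, C3, Cp, F2, Gc, Hp, Itih4, Serpina1a, Serpina1b, Serpina1d, Serpinc1, Trf and Vtn. Just outside the threshold lay Apoa1 and Kng1, each at 0.99, and just inside it Serpina1b at 1.12. Apoa1 passed the threshold when any 1 library but Dnmt3a+/- replicate 2 was left out. The largest values were 3.88 for Apoh, 3.86 for C3, 3.01 for Apoe, 2.95 for Cp, 2.73 for Hp and 2.5 for Trf. Serpinf1, at 3.43, had too low a median count to be judged.

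Much of this measure comes from the libraries with 4 and 6 Alb counts. In the 6 libraries with at least 100 Alb counts, chosen after the data were seen, 8 genes departed: Apoa2, Apoe, Apoh, C3, Hp, Itih4, Serpinf1 and Vtn. Ahsg, Cp, F2, Gc, Serpina1a, Serpina1b, Serpina1d, Serpinc1 and Trf passed the threshold only with Dnmt3a+/- replicates 2 and 4 included. Of these 6 libraries, Vtn had 0 counts in WT replicate 1 and between 1.83 and 3.85 per 100 Alb counts in the other 5.

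Per 100 Alb counts, Pzp gave 9.09, 8.66, 7.89 and 8.85 in WT and 6.63 and 6.17 in Dnmt3a+/- replicates 1 and 3. C3 gave 150.0, 15.4, 6.24 and 6.45 in WT and 17.2 and 6.31 in Dnmt3a+/- replicates 1 and 3. The highest value of C3 was 24.1 times the lowest, against 1.47 times for Pzp. Apoh gave 53.6, 3.47, 2.94 and 2.86 in WT and 7.27 and 6.24 in those 2 libraries. For Apoh the ratio was highest where Alb had 110 counts and lowest in WT replicates 3 and 4, where Alb was highest. Trf gave 84.5 in WT replicate 1, and the other 5 ratios lay between 17.1 and 21.1. Trf and Alb thus differed in WT replicate 1 and, below, in the libraries nearly without Alb, and kept nearly 1 ratio elsewhere. Hp gave 20 in WT replicate 1, 5.03 in Dnmt3a+/- replicate 1, and between 1.09 and 2.31 elsewhere.

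**Figure D4:**
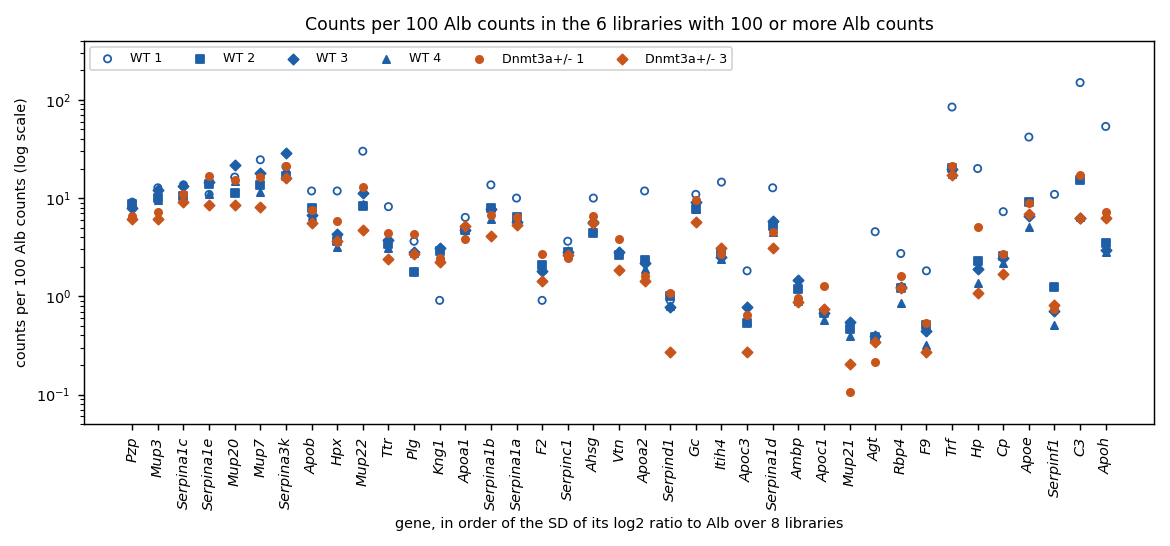
Counts per 100 Alb counts (log scale) for each gene in the 6 libraries with 100 or more Alb counts (WT blue, WT replicate 1 as open circles, Dnmt3a+/- orange), with genes ordered by the SD of their log2 ratio to Alb over all 8 libraries. Libraries lie close together on the left, at 6.17 to 9.09 for Pzp, and WT replicate 1 rises above the rest on the right, at 150.0 for C3 and 53.6 for Apoh.

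With the pooled ratio of the 8 libraries, the count expected from Alb can be set beside the count observed. In Dnmt3a+/- replicates 2 and 4, C3 had 46 and 460 counts where 0.388 and 0.582 were expected. Apoh had 77 and 82 where 0.155 and 0.233 were expected. Trf had 36 and 60 where 0.773 and 1.16 were expected. Apoe had 32 and 44 where 0.269 and 0.403 were expected. These 4 genes gave 191 of the 222 counts of the 40 genes in replicate 2 (86.0%) and 646 of the 736 in replicate 4 (87.8%). In WT replicates 2, 3 and 4 they gave 14.9%, 10.2% and 10.6%. Cp and Serpinf1 were the other genes with more than 10 counts in replicate 4, with 29 and 18. In WT replicate 1, 16 of the 39 genes had a ratio whose exact 95% interval lay above the pooled ratio and 0 lay below. In Dnmt3a+/- replicate 3, 1 lay above and 16 below. The pooled ratio is set mostly by WT replicates 3 and 4, which hold most Alb counts.

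Levels of genes of other cell types stood beside C3 as follows. Dcn, a matrix proteoglycan of fibroblasts and liver stellate cells, had 69, 209, 142 and 58 counts in WT and 126, 47, 8 and 291 in the libraries labelled Dnmt3a+/-. Dcn, like C3, was highest of its label in Dnmt3a+/- replicate 4. In WT, Dcn was highest in replicate 2 and C3 in replicate 3. The other genes of the stellate list, also looked at after the values of C3 were seen, were mixed. Ecm1 and Hand2 had their highest count of that label in replicate 4. Col1a1 had 6 counts in both replicates 2 and 4, and Colec11, Pdgfrb, Lrat and Reln were not highest in replicate 4. The 7 genes of the monocyte and macrophage list, looked at one by one after the values of C3 were seen, did not share a pattern. Csf1r, Adgre1 and Cd68 had 58, 63 and 37 counts in Dnmt3a+/- replicate 2 and 61, 69 and 46 in replicate 4, above the counts of every other library. Libraries differed in depth, with 22160394 counts in Dnmt3a+/- replicate 4 and 17274175 in WT replicate 2. Relative to depth, Csf1r in Dnmt3a+/- replicate 4 was not above WT replicate 2, which had 51 counts. Mrc1 was highest in WT replicates 2 and 3, at 130 and 113 counts, against 55 and 100 in Dnmt3a+/- replicates 2 and 4. Lyz2 was lowest in Dnmt3a+/- replicate 2, and Ccr2 and Ly6c2 had 10 counts or fewer in each library. Their part in the counts of C3, Apoe and Trf was not tested.

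How the counts were assigned bears on several departing genes. Apoh (chr11:108343354-108414396, plus strand in GENCODE M21) overlaps Prkca on the other strand, which had 16297 counts over the 8 libraries. The 2 genes share 30 of the 1594 exon bases of Apoh. Prkca counts were 1610 to 2203 in WT and 1878 to 2863 in Dnmt3a+/-. No source used here states the strand setting of the counting, so reads of Apoh and Prkca cannot be told apart in the shared bases. The RefSeq start used for the printed window lies within this gene model. Plg shares 420 of 3711 exon bases with Slc22a3 and Serpinc1 shares 2942 of 8546 with Zbtb37, both on the other strand. Plg was at 0 in Dnmt3a+/- replicates 2 and 4, and Serpinc1 had 0 and 1 there. Trf shares 68.3% of its 50-base transcript words with an overlapping model of the same strand that is not among the 55487 genes.

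The ratio of count to TPM, scaled to each library, stands for the length that the authors' estimate gave a gene. It varied less than 1.1-fold between libraries for 29 of the 40 genes, counting libraries with at least 30 counts. Alb varied 1.02-fold over 6 libraries and Apoh 1.08-fold over 8. C3 varied 1.86-fold, Apoe 1.83-fold, Trf 1.59-fold and Cp 1.51-fold, so the length assigned to these 4 departing genes differed between libraries. For Apoe the value was 18.5 in Dnmt3a+/- replicate 4 and 10.1 to 13.7 in the other 7 libraries. Over all 2174 genes with enough counts, the median SD of its log2 was 0.04, against 0.26 for C3, 0.24 for Apoe and 0.21 for Trf.

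Within the 2 multigene families, proportions also differed between libraries. Serpina1e gave 17.9% of the 67 Serpina1 counts in WT replicate 1, with an exact 95% interval of 9.61% to 29.2%. It gave 31.6%, 31.0% and 29.6% of the Serpina1 counts in WT replicates 2, 3 and 4, 36.9% in Dnmt3a+/- replicate 1 and 28.2% in replicate 3. The exact 95% interval in Dnmt3a+/- replicate 1 was 32.3% to 41.6%, which lies just above those of WT replicates 3 and 4. In the Mup family, Mup20 gave 19.6% of the 92 counts in WT replicate 1 (12.03% to 29.1%), 25.8% of counts in WT replicate 2 and 34.04% in WT replicate 3, the last 2 with intervals of 23.7% to 28.0% and 33.1% to 34.99%. Per 100 Alb counts, Mup20 was 16.4 and 15.2 in the replicates numbered 1 of WT and Dnmt3a+/-, 21.7 in WT replicate 3, 14.8 in replicate 4, 11.2 in replicate 2 and 8.55 in Dnmt3a+/- replicate 3. The intervals of the last 4 libraries did not overlap except for 10.2 to 12.4 in WT replicate 2 and 7.07 to 10.3 in Dnmt3a+/- replicate 3. Reads are shared within these families: 100% of the 50-base words of Mup22, 86.7% of those of Mup7 and 74.2% of those of Serpina1c also occur in other genes. The split between copies is thus the authors' estimate and uncertain.

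By position, the 40 genes lie on 17 chromosomes, with 7 on chromosome 12 and 6 on chromosome 4, where the Serpina and Mup clusters are. Apoe and Apoc1 lie 3.45 kb apart on chromosome 7. Apoe kept 32 and 44 counts in Dnmt3a+/- replicates 2 and 4, and Apoc1 had 1 and 0. Apoa1 and Apoc3 lie 2.47 kb apart on chromosome 9. Apoa1 was at 0.99, just under the threshold, and Apoc3, at 1.91, had too low a median count to be judged.

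Among 5993 genes outside the 40 with at least 20 counts in 4 or more libraries, the 10 whose ratio to Alb varied least were named. Fga, Fgb and Fgg, the chains of fibrinogen, had SDs of 0.26, 0.52 and 0.54. Ces1c and Ces3a, carboxylesterases, had 0.96 and 1.37. Pigr, the receptor that carries polymeric immunoglobulin into bile, had 0.97. Azgp1, Mug2, Mup14 and Mup19 had 1.16, 1.17, 1.31 and 1.57. The median over all 5993 was 4.69, and 5 of them were under 1. Fga had 8, 271, 1085 and 806 counts in WT and 57, 0, 93 and 0 in the libraries labelled Dnmt3a+/-, so fibrinogen mRNA had the pattern of Alb. In Dnmt3a+/- replicates 2 and 4 the added 0.5 sets the ratio of a gene at 0. Closeness to Alb is not measured there for such genes.

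A wider list of 90 liver-secreted plasma protein genes, of which 87 were in the tables and 85 had any count, showed the same direction. Of the 34 that passed the filter, 31 had a negative and 3 a positive log2 fold change, 0 were called by edgeR, and the median was -3.32 against -0.01 over all genes. With no filter, 56 of 85 were called lower, where 1.33% of all genes fitted were, and without WT replicate 1, 26 of 45, where 1.74% were. The most abundant of the list were level over the libraries. F5, coagulation factor V, which platelets store in granules, had 75777 to 107063 counts over WT and 74217 to 111763 over Dnmt3a+/-, with a log2 fold change of -0.11 (SE 0.14). Pros1, protein S, had 11748 to 13022 and 12100 to 19800, with a log2 fold change of 0.08 (SE 0.09).

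Hepatocyte enzymes were highest in WT replicates 3 and 4, as the 40 genes were. A list of 30 hepatocyte enzymes summed to 148, 888, 2370 and 1496 counts in WT and 316, 81, 252 and 71 in the libraries labelled Dnmt3a+/-. All 15 that passed the filter had a negative log2 fold change (median -2.18), and edgeR called 0. Its leading genes were Cyp2e1, a cytochrome P450, with 30, 185, 474 and 430 counts in WT and 25, 0, 28 and 12 in Dnmt3a+/-, and Ugt2b5, a glucuronosyltransferase, with 2, 56, 261 and 163 and 14, 0, 17 and 0. Both were highest in WT replicates 3 and 4, like Alb. Cyp4a14 was at 0 in every library. Of 12 liver transcription factor genes, Cebpa led with 27 to 91 counts in WT and 31 to 84 in Dnmt3a+/-, Hnf4a had 0, 10, 11 and 11 in WT and 6, 0, 2 and 0 in Dnmt3a+/-, and Foxa1 and Foxa2 were at 0.

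**Figure D5:**
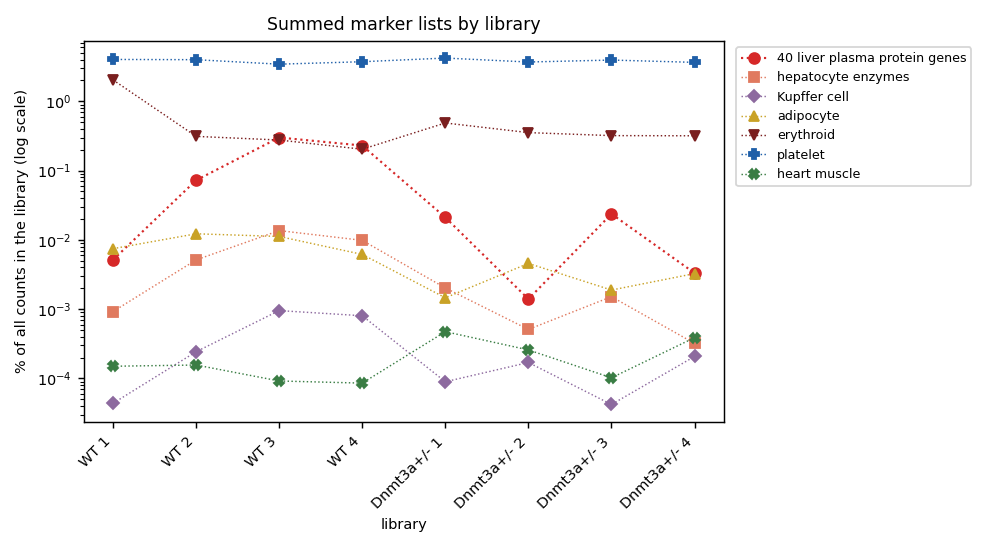
Summed share of counts (log scale) of the 40 genes and of 6 marker lists in each library, with dotted lines only joining the points of a list. The hepatocyte enzymes are highest in WT replicates 3 and 4 like the 40 genes, the platelet list is level at 3.44% to 4.21%, and the erythroid list stands out in WT replicate 1 at 2.04%.

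The Kupffer cell list summed to 7 to 166 counts in WT and 7 to 46 in Dnmt3a+/-, highest in WT replicate 3. It was led by C6 and Cd5l. C6, which is also on the wider list of liver-secreted plasma protein genes, had 89 of the 166 counts in WT replicate 3. Clec4f, the gene that defines these resident liver macrophages, named after its values were seen, had 0, 4, 27 and 10 counts in WT and 1, 0, 2 and 0 in Dnmt3a+/-. Other genes of the list, named likewise, differed from it. Cd5l had 1, 13, 19 and 29 counts in WT and 2, 6, 1 and 19 in Dnmt3a+/-. Folr2 had 4, 9, 1 and 4 and 3, 8, 1 and 14, and Cd163 2, 4, 14 and 10 and 4, 7, 1 and 4. Vsig4, Timd4 and Marco had 9 counts or fewer in each library. The liver endothelium list (1031 to 1359 counts in WT, 948 to 1206 in Dnmt3a+/-) and the stellate list (15100 to 20646 and 14117 to 19903) had level sums. These sums rest mostly on Clec4g and Lyve1 and on Ecm1, and other members differed. Picked after their values were seen, Dnase1l3 had 0, 51, 74 and 31 counts in WT and 3, 5, 5 and 2 in Dnmt3a+/-. Gpr182 had 0, 19, 29 and 10 and 3, 0, 3 and 2, and Reln 0, 4, 9 and 4 and 0, 0, 1 and 0. Oit3 was level, with 226, 278, 203 and 175 and 308, 281, 211 and 273. The bile duct list, led by Spp1, summed to 38 to 138 and 32 to 250, with Cftr at 0.

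The adipocyte list, led by Scd1 and Fabp4, summed to between 937 and 2116 counts in WT and between 228 and 727 in libraries labelled Dnmt3a+/-. It was without the low value in WT replicate 1 that Alb had. In WT the sums rest mostly on Scd1, and members differed. The 4 fitted genes, named after their values were seen, had log2 fold changes of -2.35 (Scd1), -2.25 (Car3), -0.46 (Lpl) and -0.32 (Fabp4). None of them was called by edgeR. Heart muscle genes, led by Tnnt2 and Myl2, summed to 13 to 27 and 17 to 86, with Nppa and Ryr2 at 0. Enterocyte genes, led by Apoa4 and Fabp2, summed to 2 to 35 and 0 to 9, with Alpi and Sis at 0. Lung epithelium genes summed to 0 to 3 in any library, with Sftpc, Sftpa1, Scgb1a1 and Cldn18 at 0, and kidney tubule genes to 0 to 11, with Slc34a1, Umod and Kap at 0. Neutrophil genes, led by S100a9 and S100a8, summed to 3 to 28 and 2 to 7, with Camp and Elane at 0, and the monocyte and macrophage list was nearly all Lyz2, at 53966 to 103615 counts. The part of any of these cell types in the levels of the 40 genes was not tested.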

How the data were processed

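The authors deposited estimated counts, whole numbers per gene, and TPM values that sum to 1000000 in each of the 8 libraries. The submitters' processing notes name RSEM, STAR, cutadapt, DESeq2 and the build mm10. Versions, annotation release and strand setting are not given there. Genes were located in GENCODE M21 (GRCm38, also called mm10), which holds 55141 of the 55487 identifiers. The 86 rows without a symbol were kept under their identifiers.

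Counts were tested with edgeR 4.0.16 under R 4.3.3 (TMM factors, filterByExpr by group with minimum count 10 and minimum total 15, glmQLFTest, Benjamini-Hochberg over 7362 genes, threshold 0.05), without covariates. The fitting script was tested on simulated data. DESeq2 1.42.0, limma 3.58.1 on log2(TPM + 0.1), other scalings, no filter, a replicate block and each library left out were alternatives. CPM are TMM-scaled. The p-values measure the spread between mice. No 2 libraries agreed within sampling noise (chi-square of their counts at least 12.2 per degree of freedom), so none was merged.

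The members and all gene lists were chosen with earlier results of these data known. Every member was named, with its counts in each library where it departed from Alb or led its role; outside the 40 genes, the 10 closest to Alb and up to 2 leading genes per list were named. Dnmt3a, marker genes at 0 and genes said to be chosen later stand outside this rule. Promoter words were counted on both strands in RefSeq windows of GRCm38.p6. Depth limits genes with few counts: a count of 0 allows up to 3 counts.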

Additional observations from a re-analysis of the deposited data

Results flagged for a closer look

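In 114 groups of 4 libraries, 5 values stood apart from the other 3 by a gap that, over the group's range, passed Dixon's 95% critical value. Chance alone gives about 1 in 20 such values. None was a member gene or a sum of members. Erythroid genes made up 2.04% of counts in WT replicate 1. Enterocyte genes, mainly Apoa4, which the liver also expresses, made up 0.000201% in WT replicate 3, which was also highest in all 40 liver plasma protein genes. The other 3 rest on 2 or 3 counts each: lung epithelium genes at 1.25e-05% in WT replicate 1 and 1.89e-05% in the library labelled Dnmt3a+/- replicate 2, and kidney tubule genes at 1.72e-05% in WT replicate 3.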

How the results depend on the processing

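No member changed sign under any alternative. The 0 genes and 0 members called by edgeR became 250 genes and 40 members with no filter on low counts, 14 and 3 with DESeq2, and 1 gene and 0 members with the robust edgeR fit. Leaving out each library gave 0 to 135 genes and 0 to 29 members, with the upper ends without WT replicate 1 and 1 gene without Dnmt3a+/- replicate 2. The 15 genes departing from Alb became 21 with TPM in place of counts (Pzp among them), 9 with an SD above 1.5 and 8 with a median count of 50. They became 8 in the 6 libraries with 100 or more Alb counts, an alternative chosen after seeing the data. Leaving out each library gave 14 to 18. With the summed members in place of Alb, 23 genes departed, and the split changed. These took in Pzp, Mup3, Mup7, Mup20, Serpina1c, Serpina1e and Serpina3k, the genes closest to Alb. Cp, Gc, Itih4, Serpina1d, Serpinc1 and Trf, which departed from Alb, were not among them. Which genes depart thus depends on the reference. The median log2 fold change of the other plasma protein genes, -3.32, was -2.08 with limma on log2(TPM + 0.1) and -2.58 to -4.02 with each library left out. The mean log2 difference in the members' share, -3.36, ran from -2.59 to -4.62 over all its alternatives. Same-numbered libraries of the 2 groups deviated together with r of -0.04, 0.08, 0.16 and -0.17, so no pairing by number was seen. With 4 libraries per group, such values cannot exclude a pairing. A replicate block gave 0 genes and 0 members called and a median of -3.09. With 4 and 6 Alb counts in Dnmt3a+/- replicates 2 and 4, ratios to Alb there are known only within wide counting intervals, for example 3495 to 21000 C3 counts per 100 Alb counts in replicate 4.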

Other observations

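Several complement genes of the wider plasma protein list, picked after their values were seen, are given as values. C8a and C9, of the membrane attack complex, had 0, 40, 140 and 112 and 0, 14, 179 and 71 counts in WT, and 14, 0, 8 and 0 and 9, 0, 11 and 0 in the libraries labelled Dnmt3a+/-. Hc, which encodes C5, had 11, 45, 185 and 152 in WT and 10, 0, 14 and 0 in Dnmt3a+/-. These 3 genes were at 0 in Dnmt3a+/- replicates 2 and 4, where Alb had 4 and 6 counts, as was Cfi, the gene of complement factor I.

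Several classical pathway genes had counts in 1 or both of these libraries. C1s1, a protease of the C1 complex, had 22, 80, 106 and 73 counts in WT and 18, 7, 9 and 66 in Dnmt3a+/-. C1ra, its partner protease, had 4, 53, 73 and 84 and 17, 0, 7 and 52. C4b, a C4 gene, had 9, 84, 140 and 117 and 21, 22, 15 and 58. Serping1, the C1 inhibitor, had 17, 85, 151 and 94 and 41, 10, 17 and 78. Each of these 4 was highest of its label in Dnmt3a+/- replicate 4. C2, the protease of the classical pathway C3 convertase, was different, with 19, 36, 38 and 21 counts in WT and 54, 37, 18 and 29 in Dnmt3a+/-, highest in Dnmt3a+/- replicate 1. Fitted log2 fold changes were -1.71 for C1s1, -1.72 for C1ra, -1.77 for C4b, -1.43 for Serping1 and 0.23 for C2, against -3.78 for C8a and C9 and -4.10 for Hc, and edgeR called none of them at an adjusted p under 0.05. The difference between these genes was not tested.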
